A study of Mus musculus with 50 samples.

Results

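Expression of 10 genes of prostaglandin and leukotriene synthesis was described in hippocampal microglia of male C57BL/6J mice. The genes were chosen by symbol from the 53700 genes counted, and all 10 were among the 16696 genes with enough counts to be tested. They were Pla2g4a, Ptgs1, Ptgs2, Ptges, Hpgds, Tbxas1, Alox5, Alox5ap, Ltc4s and Ptger4. Microglia were sorted as CD45int CD11b+ cells from the hippocampi of 50 mice, and poly-A RNA was sequenced as 1 library per mouse. CTR mice were raised in standard cages, and early-life stress (ELS) was given as limited bedding and nesting material until postnatal day 9 (P9). At P9 12 CTR and 13 ELS mice were killed without any injection. At P200 mice were killed 3 h after an intraperitoneal injection of PBS (7 CTR-PBS and 6 ELS-PBS) or of LPS at 1 mg/kg (7 CTR-LPS and 5 ELS-LPS), LPS being a constituent of bacterial outer membranes that immune cells sense. Age coincided with the preparation, since adult tissue was cleared of myelin with Percoll and P9 tissue was not, and with the injection. The labels number the mice by a prefix that several mice share, possibly a litter, so the mice may not all be independent and p-values measure the spread between these mice. In the annotation of GRCm39 Ptgs2 lies at chr1:149975194-149983978, Ptger4 at chr15:5236142-5273673, Alox5 at chr6:116387032-116438139 and Alox5ap at chr5:149196003-149227762, all protein-coding genes.

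Prostaglandins and leukotrienes are short-range lipid signals made from arachidonic acid, which cytosolic phospholipase A (Pla2g4a) cuts from membranes. The cyclooxygenases Ptgs1 and Ptgs2 turn arachidonic acid into prostaglandin H. From it terminal synthases make prostaglandin E (Ptges), prostaglandin D (Hpgds) or thromboxane (Tbxas1). The lipoxygenase Alox5, helped by its activating protein Alox5ap, opens the leukotriene branch, to which Ltc4s also belongs. Ptgs1 is known as the constitutive and Ptgs2 as the inducible cyclooxygenase in many tissues including microglia, and Ptger4 encodes the EP4 receptor for prostaglandin E.

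The total count per mouse lay between 5152838 and 42231258 with a median of 19960409. In 3 libraries fewer genes had a count than in the rest (12482 and 15731 in the mice labelled P9_19.3_ELS and P9_19.2_ELS, and 12854 in P200_1.1_CTR_PBS), and refits without them are given beside the age and LPS results. All 8 microglia markers were present in every group, with a summed level of 35708 to 63223 CPM (read counts scaled to a common library size by TMM) at P9, 74695 to 81086 CPM after PBS and 63541 to 77450 CPM after LPS. By edgeR's quasi-likelihood test 5 of the 8 were higher and Fcrls was lower at P200 than at P9 in both conditions, led by Tmem119 (log2 fold change 2.01, SE 0.20, adjusted p = 5.64e-12 in CTR). With LPS 2 of the 8 were lower in both conditions, Sall1 (-1.73, SE 0.16, adjusted p = 1.17e-12 in CTR) and P2ry12 (-0.62, SE 0.16, adjusted p = 0.00443 in CTR), and the part of this in the member results was not tested. In adults the summed level of 8 neutrophil markers was at most 1.84 CPM in every mouse apart from P200_17.3_ELS_LPS at 9.99 CPM, and that of 6 border macrophage markers was at most 9.62 CPM. At P9 the border macrophage markers summed to 470 to 918 CPM, almost all of it Mrc1, the neutrophil markers to 9.08 to 30.9 CPM, almost all of it Cxcr2 while Ly6g, Ltf and Retnlg were at 0 in every P9 mouse, and 5 neuron and 5 astrocyte markers were also higher at P9 (medians of 109 and 124 CPM in P9-CTR against 5.74 and 3.12 CPM in CTR-PBS). In sorted bulk RNA fewer cells of a type and less RNA per cell cannot be told apart.

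Compared per length of annotated exons, Ltc4s and Ptgs1 were the most abundant of the 10 RNAs in all 6 groups. In CTR-PBS Ltc4s was at 405 ± 53.8 CPM per kb (mean ± SD, n = 7) and Ptgs1 at 362 ± 31.7 CPM per kb, and the ranges of these 2 genes overlapped. Alox5ap followed at 150 ± 16.1 CPM per kb, then Hpgds at 48.2 ± 4.76, Tbxas1 at 32.8 ± 1.99, Pla2g4a at 22.4 ± 2.096 and Alox5 at 16.5 ± 3.53 CPM per kb. Pla2g4a and Alox5 overlapped, while the other neighbours from Ptgs1 down to Tbxas1 were apart in every mouse. Ptger4 (0.999 ± 0.161 CPM per kb) was lower, and Ptges (0.0611 ± 0.0665) and Ptgs2 (0.0343 ± 0.0842) were close to 0. In the leukotriene branch Ltc4s and the activating protein Alox5ap were at far higher RNA levels than Alox5 itself. Ltc4s and Ptgs1 share exon bases with the opposite-strand genes Gm26542 and Gm43621, which had means of 256 and 188 CPM in CTR-PBS. Where counting ignores strand the reads of such genes cannot be told apart, and the levels may be affected. Relative to the longest transcript instead of the union of all exons the same order held in CTR-PBS, except that Hpgds (95.03 ± 9.40 CPM per kb) and Tbxas1 (91.0 ± 5.52 CPM per kb) overlapped and Pla2g4a and Alox5 did not.

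Promoter sequences of RefSeq were found for 9 of the 10 genes. The table's windows are of build GRCm38.p6, and each was placed in GRCm39 by exact match. The stretches before the annotated start are shown for the constitutive cyclooxygenase Ptgs1, for the LPS-responsive pair Ptgs2 and Ptger4, and for Alox5, which differed with age. Capitals mark matches on either strand to the PU.1 motif GAGGAAGT, the C/EBP motif TTGCNNAA or the GC box GGGCGG, written 5′ to 3′ on the strand of the gene.
Ptgs1 (chr2:36120188-36120437, plus strand): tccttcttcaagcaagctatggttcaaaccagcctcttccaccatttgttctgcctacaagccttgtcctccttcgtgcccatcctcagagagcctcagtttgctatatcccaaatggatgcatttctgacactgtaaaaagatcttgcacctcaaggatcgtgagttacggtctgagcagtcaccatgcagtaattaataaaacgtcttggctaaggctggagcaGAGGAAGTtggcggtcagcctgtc
Ptgs2 (chr1:149975702-149975731, plus strand): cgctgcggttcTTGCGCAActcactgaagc
Ptger4 (chr15:5273674-5273918, minus strand): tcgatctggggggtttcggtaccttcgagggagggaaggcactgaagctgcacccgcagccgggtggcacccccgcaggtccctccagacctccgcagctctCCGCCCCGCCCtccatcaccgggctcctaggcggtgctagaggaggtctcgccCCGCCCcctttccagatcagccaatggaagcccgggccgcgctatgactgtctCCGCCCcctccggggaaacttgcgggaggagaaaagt
Alox5 (chr6:116438140-116438389, minus strand): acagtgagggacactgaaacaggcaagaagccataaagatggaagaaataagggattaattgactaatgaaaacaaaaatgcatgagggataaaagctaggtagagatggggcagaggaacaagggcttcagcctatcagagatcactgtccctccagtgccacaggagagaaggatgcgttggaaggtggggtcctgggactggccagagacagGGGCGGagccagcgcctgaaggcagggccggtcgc
The Ptgs2 window lies inside an exon of a longer annotated transcript, so only 30 bases of it are shown. In the 250 bases before the start the Ptgs1 window held 1 PU.1 match, 24 to 17 bases upstream, and 2.44% of all 32851 RefSeq windows of this length held one. The Ptger4 window held 4 GC boxes, of which 2 share 1 base (32.7% of all windows held at least 1), and the Ptgs2 window held 1 GC box and 1 C/EBP match (9.56% of all windows held a C/EBP match). Hpgds held 1 PU.1 and 1 C/EBP match, and Alox5 held 1 GC box. None of the 9 genes had the NF-kB motif, the CRE half-site TGACG or the E-box CACGTG in these windows (7.25%, 17.8% and 6.02% of all windows). The windows of Ptgs2, Ptges, Tbxas1 and Hpgds lie inside the annotated genes, as does 1 of the 2 Pla2g4a windows. The other Pla2g4a window and those of Ltc4s and Ptger4 reach partly into theirs. An absence from these 250 bases does not describe the sequence outside them. A match is a description of the letters and not a binding site. The NF-kB and C/EBP letters were widened after these windows were seen, so their results are not independent of the windows.

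To describe the acute immune response, P200 mice injected with LPS were compared with those injected with PBS. LPS raised Ptgs2 and Ptger4 in both CTR and ELS mice, that is the inducible cyclooxygenase and a receptor for the prostaglandin E made from its product. The other 8 members did not pass the test in either condition. Ptgs2 was at 0 counts in 5 of 7 CTR-PBS mice, and P200_5.2_CTR_PBS and P200_5.1_CTR_PBS had 0.0779 and 1.15 CPM. In CTR-LPS it ranged from 41.5 to 330 CPM with a median of 214 CPM. In ELS-PBS 5 of 6 mice had 0 counts and P200_17.1_ELS_PBS had 1.37 CPM, whereas the 5 ELS-LPS mice had 11.13, 88.8, 246, 332 and 437 CPM. Every LPS mouse was above every PBS mouse, and the lowest LPS mouse was 36.0-fold above the highest PBS mouse in CTR and 8.14-fold in ELS. Over the 38 mice without LPS, P9 included, Ptgs2 was at 0 in 26 and did not exceed 34 counts.

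Ptgs2 had a log2 fold change of 9.87 (SE 0.95) in CTR (adjusted p = 6.11e-12) and of 9.87 (SE 1.01) in ELS (adjusted p = 7.43e-11) by edgeR's quasi-likelihood test. It ranked 4 in CTR and 7 in ELS among the 16696 tested genes by the size of the increase. These fold changes rest on the few PBS counts, and rose to 13.11 without P200_5.1_CTR_PBS and to 15.22 without P200_17.1_ELS_PBS. These were also the only mice without LPS that reached 1 CPM, and the filter asked for more than 2 mice. Ptgs2 was thus tested only because of the LPS mice, the groups in which it was called higher. Ptger4 lay between 4.43 and 7.70 CPM (median 6.74) in CTR-PBS and between 58.3 and 176 CPM (median 86.1) in CTR-LPS. In ELS-PBS it lay between 5.98 and 10.5 CPM (median 9.01), and the ELS-LPS mice had 40.8, 78.7, 115, 124 and 211 CPM. The groups did not overlap, and the medians differed 12.8-fold in CTR and in ELS. For Ptger4 the log2 fold change was 3.85 (SE 0.33, adjusted p = 2.53e-13) in CTR and 3.70 (SE 0.36, adjusted p = 1.76e-11) in ELS by the same edgeR test. Of all tested genes 8.73% were higher with LPS in CTR and 7.4% in ELS, against 2 of the 10 members in each, while 6.2% and 4.94% were lower, against none of the members. Without the 3 libraries with few detected genes the CTR values were 9.65 for Ptgs2 and 3.78 for Ptger4. All 4 of these member comparisons were without overlap, as were 7.49% of all genes in CTR and 10.0% in ELS. Ptgs2os, which overlaps Ptgs2 on the opposite strand, reached 3.11 CPM at most, and the opposite-strand neighbours Ttc33 and Gm15937 of Ptger4 had medians of 32.8 and 0.195 CPM in CTR-LPS against 47.0 and 0.213 CPM in CTR-PBS.

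**Figure D1:**
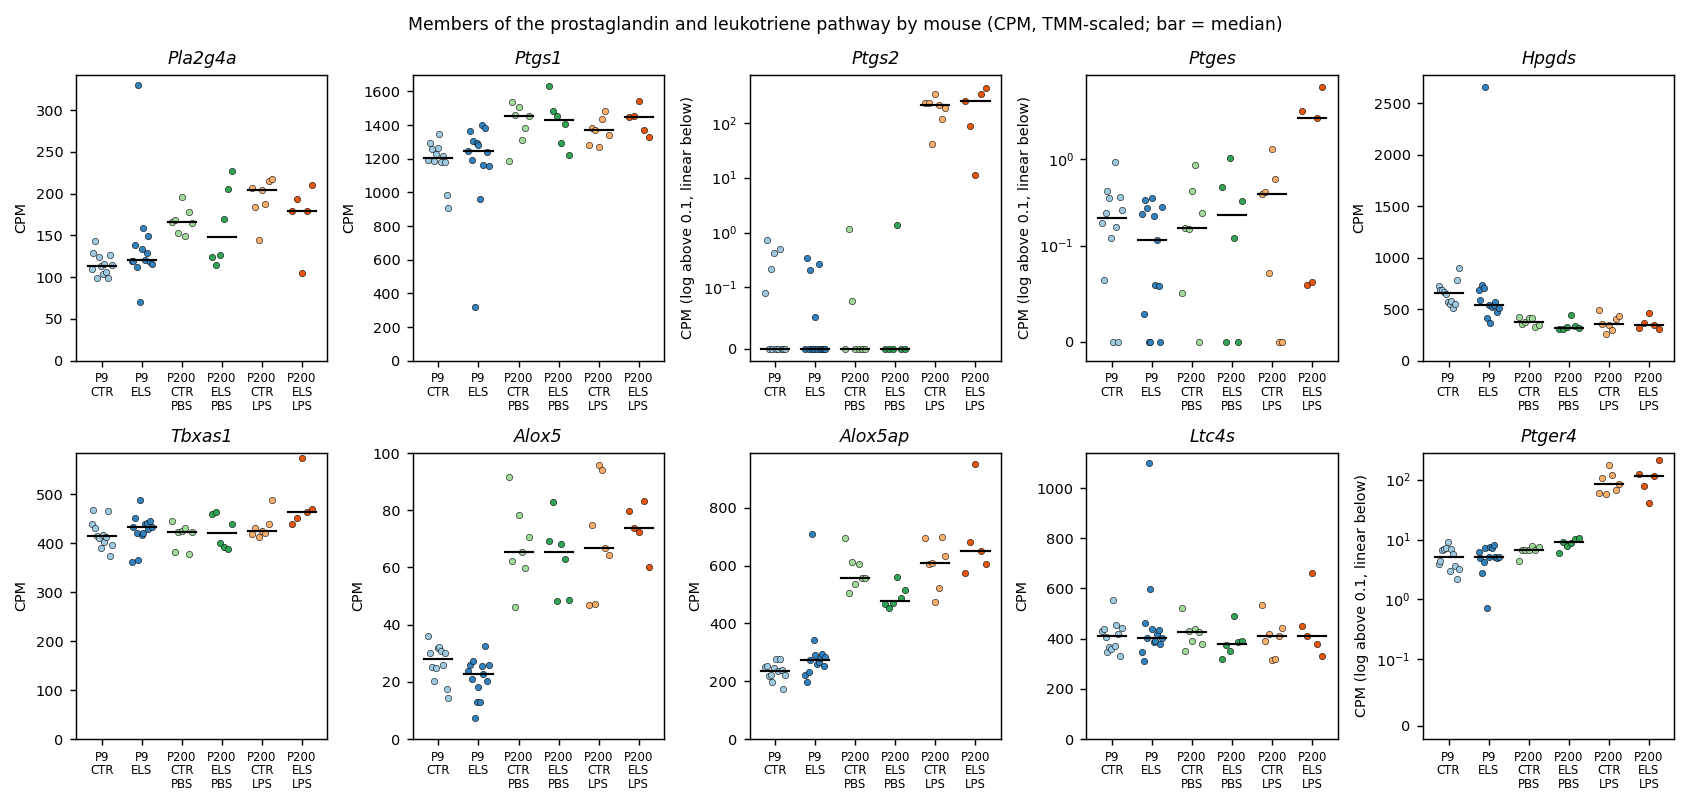
Expression of the 10 members in CPM (TMM-scaled) by mouse in the 6 groups, with 1 point per mouse and a bar at the group median. The axes of Ptgs2, Ptges and Ptger4 are logarithmic above 0.1 CPM and linear below, and the others are linear. The 12 LPS mice lie above all other mice for Ptgs2 (11.13 to 437 CPM against at most 1.37) and Ptger4, Alox5 and Alox5ap are higher at P200 than at P9, and 1 P9-ELS mouse stands apart for Hpgds, Ltc4s, Alox5ap, Pla2g4a and Ptgs1.

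Ptges, the terminal prostaglandin E synthase among the members, remained near 0 in most mice. Its highest mouse had 0.855 CPM in CTR-PBS, 1.03 CPM in ELS-PBS and 1.29 CPM in CTR-LPS. The ELS-LPS mice had 0.0585, 0.0618, 2.96, 3.62 and 6.79 CPM, so that 3 mice were above every other mouse of the study and 2 were not. Without these 3 mice Ptges would not have met the filter of more than 2 mice at 1 CPM. The log2 fold change for LPS in ELS was 3.03 (SE 1.16, adjusted p = 0.0801) and that in CTR was 0.59 (SE 1.01, adjusted p = 0.786), both by edgeR's quasi-likelihood test. DESeq2 and the edgeR likelihood-ratio test put the ELS value past the threshold (adjusted p = 0.0346 and 0.0417). So did the quasi-likelihood refit without the 3 libraries with few detected genes (adjusted p = 0.0456). It passed in these 3 of 10 alternatives, and over all of them the adjusted p was between 0.0346 and 0.133. It also passed without P200_11.1_ELS_PBS (adjusted p = 0.045). In the order of these Ptges values, the 3 higher mice had 9.99, 0.0738 and 0.217 CPM of summed neutrophil markers. Their summed monocyte markers were at 8.35, 6.49 and 7.95 CPM. The 2 mice at 0.0585 and 0.0618 CPM of Ptges had 0.761 and 1.24 CPM of neutrophil and 0.878 and 2.97 CPM of monocyte markers. In the CTR-LPS mice, with Ptges at most 1.29 CPM, these sums were 0 to 1.84 CPM for neutrophil and 2.93 to 8.37 CPM for monocyte markers. P200_15.2_CTR_LPS had the highest of both in its group and no Ptges counts. The part of these markers in the Ptges values was not tested.

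Alox5ap in ELS mice was at 454 to 562 CPM (median 478) after PBS and at 575, 605, 650, 682 and 952 CPM after LPS. These groups did not overlap either, yet the log2 fold change of 0.49 (SE 0.18) missed the threshold (adjusted p = 0.067 by edgeR). It passed in 5 of 10 alternatives, with adjusted p values from 0.00109 to 0.0681, and also without P9_19.2_ELS (adjusted p = 0.00268), a mouse of neither group compared. Without P200_11.2_ELS_LPS, the highest mouse, it was 0.35 (adjusted p = 0.262). In CTR mice the log2 fold change was 0.06 (SE 0.16, adjusted p = 0.879). The interaction of LPS and ELS for Alox5ap was 0.43 (SE 0.24, adjusted p = 0.886), so a difference between the conditions was not shown.

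None of the remaining members passed the test with LPS. Ptgs1 spanned 1189 to 1537 CPM in CTR-PBS and 1268 to 1485 CPM in CTR-LPS, and its log2 fold change was -0.04 (SE 0.14, 95% interval from the SE -0.33 to 0.24). Tbxas1, the thromboxane synthase, spanned 377 to 445 CPM and 412 to 487 CPM, and its log2 fold change was 0.06 (SE 0.08, 95% interval -0.09 to 0.21). In ELS the log2 fold change of Ptgs1 was 0.01 (SE 0.16, 95% interval -0.31 to 0.33). That of Tbxas1 in ELS was 0.18 (SE 0.09, 95% interval 0.01 to 0.35), an interval without 0, with an adjusted p of 0.189 by edgeR. For both genes a change by 1 on the log2 scale lies outside the intervals. In the same comparison the log2 fold changes of Pla2g4a, Hpgds, Alox5 and Ltc4s were 0.21, -0.05, 0.04 and -0.05, each with an SE of 0.18 to 0.25, and in ELS they were 0.10, 0.09, 0.22 and 0.21, with an SE of 0.20 to 0.28. The median log2 fold change over the 10 members was 0.06 in CTR and 0.21 in ELS, beside 0.0047 and -0.04 over all tested genes.

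**Figure D2:**
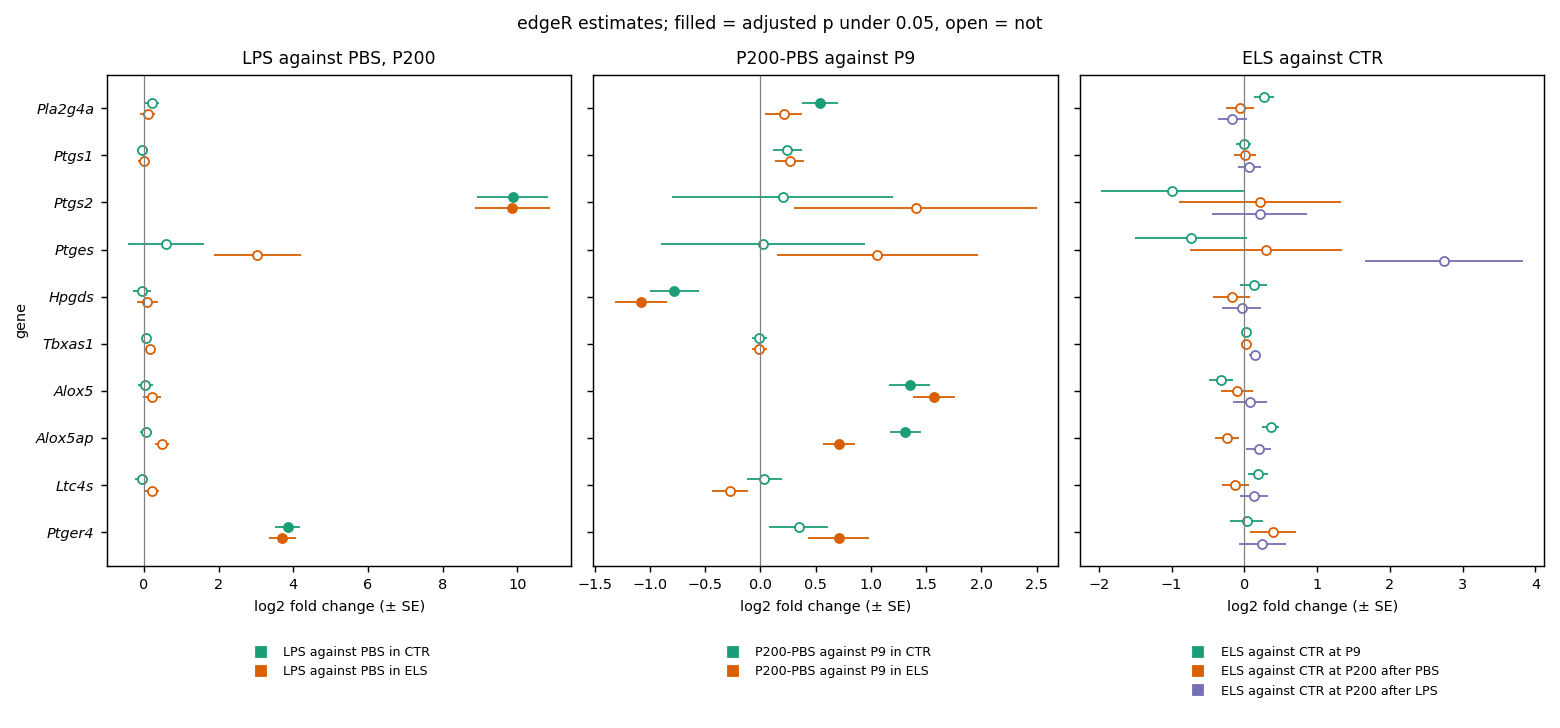
Log2 fold changes of the 10 members with their standard errors in 7 comparisons, from edgeR's quasi-likelihood fit to all 50 mice. Filled points had an adjusted p under 0.05. Ptgs2 and Ptger4 are filled for LPS in both conditions, Alox5, Alox5ap and Hpgds for age in both, and no point is filled for ELS against CTR.

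Per length, the share of Ptgs2 in the cyclooxygenase RNA was 0.00869% ± 0.0213 (mean ± SD, n = 7) in CTR-PBS, against 9.59% ± 4.57 (n = 7) in CTR-LPS. In ELS mice it was 0.0133% ± 0.0327 (n = 6) after PBS, against 10.4% ± 7.93 (n = 5) after LPS. It reached at most 20.0% in 1 mouse, so Ptgs1 was the more abundant cyclooxygenase RNA in all 50 mice. Among the 3 terminal synthases of the member list Hpgds held 71.0% ± 3.82 in P9-CTR (n = 12), 59.3% ± 1.46 in CTR-PBS and 57.0% ± 4.94 in CTR-LPS. Tbxas1 held nearly all of the rest. Ptges held 0.0731% ± 0.0767 in CTR-PBS and 0.783% ± 0.821 in ELS-LPS. With the length of the longest transcript the Hpgds share was lower (63.7% ± 4.34, 51.0% ± 1.52 and 48.7% ± 5.06 in P9-CTR, CTR-PBS and CTR-LPS), and Tbxas1 then had the larger mean share in ELS-PBS, CTR-LPS and ELS-LPS. These shares are descriptions of RNA without a test, and the rank of Hpgds and Tbxas1 depends on the length used. The 7 other prostanoid synthesis genes counted, among them Ptges2, Ptges3 and Ptgds, are not part of these shares.

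**Figure D3:**
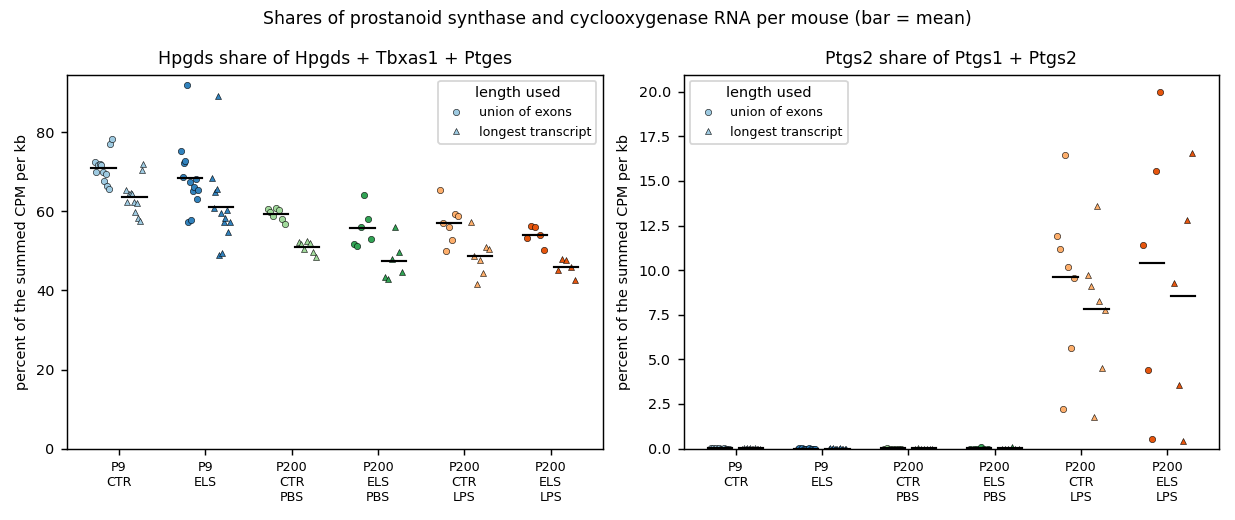
Share of Hpgds in the summed RNA of Hpgds, Tbxas1 and Ptges (left) and of Ptgs2 in that of both cyclooxygenases (right). Values are in percent of summed CPM per kb, with 1 point per mouse and a bar at the mean. Circles use the union of exons and triangles the longest transcript. The Hpgds share is higher at P9 than at P200, and the Ptgs2 share does not exceed 0.0800% outside the LPS groups.

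Ptgs2 and Ptger4, the members that responded to LPS, varied together between the LPS mice, and so did pairs that held other members. For all 45 pairs of members the log2 CPM of the 12 LPS mice, as deviations from the mean of their condition, were correlated with 100000 permutations. Ptgs2 and Ptger4 had a Pearson r of 0.857 (permutation p = 0.00019, adjusted over the 45 pairs 0.00428) and a Spearman rho of 0.811 (permutation p = 0.00229, adjusted 0.0206). Without the 2 mice farthest from the median of Ptgs2 r was 0.758, and within the 7 CTR-LPS mice it was 0.691. Ptges also went with Ptgs2 (r = 0.793 with permutation p = 0.00068 and adjusted 0.00612, rho = 0.90 with permutation p = 0.00019 and adjusted 0.00855, and r = 0.905 without the 2 farthest mice), although most of its CTR-LPS values are below 1 CPM. Alox5ap went the other way from Ptger4 (r = -0.886 with permutation p = 0.00018 and adjusted 0.00428, rho = -0.86 with permutation p = 0.00065 and adjusted 0.0146, and r = -0.754 without the 2 farthest mice). P200_11.2_ELS_LPS had the lowest Ptgs2 and Ptger4 and the highest Alox5ap, Tbxas1 and Ltc4s of the 12. Members not called for LPS correlated as strongly, such as Ltc4s with Ptger4 (r = -0.875, adjusted permutation p = 0.00495) and with Alox5ap (r = 0.854, adjusted permutation p = 0.00551). For Pla2g4a and Ptgs2 r was 0.85, but 0.102 without the 2 mice farthest from the median of Pla2g4a. The values share the scaling of their library, and this was not tested further. Pairs of genes outside the members were not compared.

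**Figure D4:**
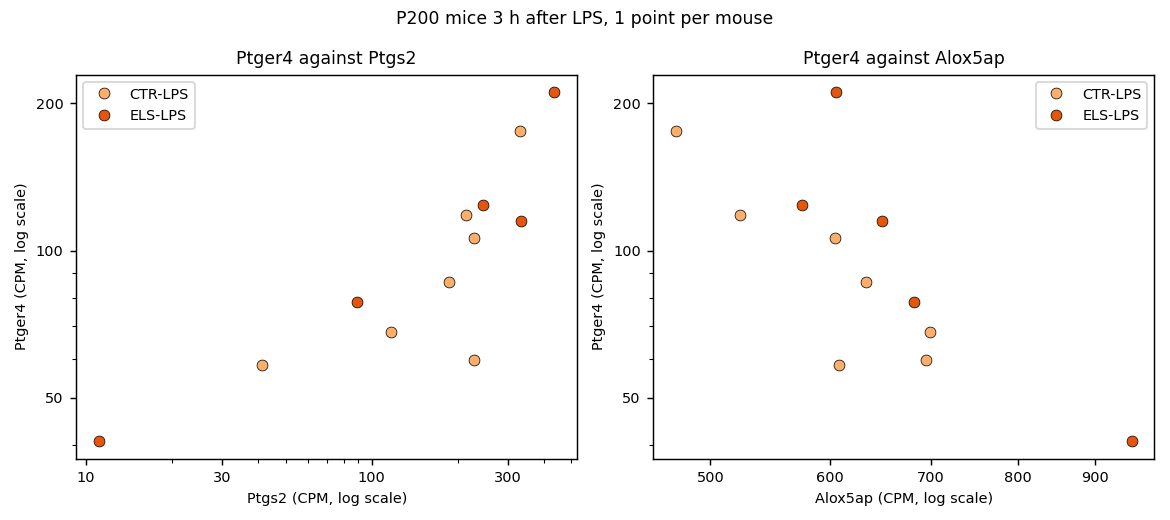
Ptger4 against Ptgs2 (left) and against Alox5ap (right) in the 12 P200 mice 3 h after LPS, in CPM on log axes, with 1 point per mouse coloured by condition. Ptger4 is higher in mice with more Ptgs2 (r = 0.857) and lower in mice with more Alox5ap (r = -0.886), both from deviations within condition.

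The age comparison set uninjected P9 mice against P200 mice after PBS. Both genes that open the leukotriene branch were higher at P200 and the prostaglandin D synthase Hpgds was lower, in CTR and in ELS mice. Alox5 lay between 14.5 and 36.1 CPM (median 27.9) in P9-CTR and between 46.1 and 91.7 CPM (median 65.5) in CTR-PBS. In ELS it lay between 7.30 and 32.4 CPM (median 22.8) at P9 and between 48.2 and 82.9 CPM (median 65.5) at P200. No P9 mouse reached the lowest PBS mouse of its condition, and by edgeR's quasi-likelihood test the log2 fold change was 1.35 (SE 0.19, adjusted p = 4.01e-08) in CTR and 1.57 (SE 0.19, adjusted p = 1.34e-09) in ELS.

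Alox5ap lay between 172 and 277 CPM (median 237) in P9-CTR and between 507 and 695 CPM (median 559) in CTR-PBS, without overlap (log2 fold change 1.31, SE 0.14, adjusted p = 5.40e-11 by edgeR's quasi-likelihood test). In P9-ELS it lay between 199 and 708 CPM (median 273), against 454 to 562 CPM (median 478) in ELS-PBS. The highest value was that of P9_19.2_ELS, 1 of the libraries with few detected genes, and the next was 344 CPM, below every ELS-PBS mouse. The log2 fold change in ELS was 0.71 (SE 0.14, adjusted p = 7.14e-05) with this mouse and 0.89 (SE 0.10, adjusted p = 1.32e-10) without it in the same edgeR test. The opposite-strand gene Gm19719, which shares exon bases with Alox5ap, went with it at a median of 128 CPM in P9-CTR and 289 CPM in CTR-PBS, and where counting ignores strand their reads cannot be told apart.

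Hpgds lay between 508 and 897 CPM (median 660) in P9-CTR and between 329 and 429 CPM (median 379) in CTR-PBS. The groups did not overlap, and the log2 fold change was -0.78 (SE 0.22, adjusted p = 0.00394) by edgeR's quasi-likelihood test. In P9-ELS it lay between 362 and 2658 CPM (median 542) and in ELS-PBS between 306 and 441 CPM (median 318). P9_19.2_ELS again held the highest value, and without it the P9-ELS mice reached 733 CPM and still overlapped with ELS-PBS. The log2 fold change was -1.08 (SE 0.24, adjusted p = 0.000228) with this mouse and -0.71 (SE 0.13, adjusted p = 1.15e-05) without it by the edgeR test. Border macrophage, neuron and astrocyte markers were higher at P9 as well, by the amounts given above, and their part in the age differences was not tested.

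Pla2g4a, which releases arachidonic acid, was at 99.1 to 144 CPM (median 114) in P9-CTR and at 149 to 196 CPM (median 166) in CTR-PBS, a log2 fold change of 0.54 (SE 0.16, adjusted p = 0.00533 by edgeR's quasi-likelihood test). In ELS mice it was 0.21 (SE 0.17, adjusted p = 0.329), and 0.38 (SE 0.13, adjusted p = 0.012) without P9_19.2_ELS, where Pla2g4a was at 330 CPM against at most 159 CPM in the other P9-ELS mice. Ptger4 was higher at P200 in ELS alone by the threshold (log2 fold change 0.71, SE 0.27, adjusted p = 0.0319, against 0.35, SE 0.27, adjusted p = 0.308 in CTR, both by edgeR). Its P9-ELS mice had 0.717 to 8.24 CPM and its ELS-PBS mice 5.98 to 10.5 CPM, which overlap, and the call was lost in 2 of 9 alternatives and when any of 4 single mice was left out (P9_9.3_ELS, P200_4.1_ELS_PBS, P200_17.2_ELS_PBS and P200_20.2_ELS_PBS, adjusted p = 0.0511 to 0.0726). The interaction of age and ELS for Ptger4 was 0.36 (SE 0.39, adjusted p = 0.808).

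Ptgs1, Tbxas1 and Ltc4s did not pass the test between ages. Ptgs1 had a log2 fold change of 0.25 (SE 0.13, adjusted p = 0.116) in CTR and 0.27 (SE 0.13, adjusted p = 0.101) in ELS by edgeR's quasi-likelihood test. P9_19.2_ELS was at 321 CPM against 963 to 1401 CPM in the other P9-ELS mice, and without it both values passed (0.24 with adjusted p = 0.00295 and 0.18 with adjusted p = 0.0382). Tbxas1 was the most even member, with -0.01 (SE 0.07) in both conditions and group medians between 413 and 463 CPM over all 6 groups. Of the members 3 were higher and 1 lower at P200 in CTR, beside 17.4% and 26.6% of all tested genes. In ELS 4 members were called, beside 42.2% of all genes, so the share of members called was near the background in both conditions. Without the 3 libraries with few detected genes the CTR values were 1.26 for Alox5, 1.27 for Alox5ap, -0.81 for Hpgds and 0.54 for Pla2g4a, and the ELS values 1.45 for Alox5, 0.93 for Alox5ap, -0.74 for Hpgds and 0.65 for Ptger4, all still past the threshold by edgeR. One of these libraries, P200_1.1_CTR_PBS, held the highest Alox5, Alox5ap and Hpgds of CTR-PBS, and without it alone the CTR values were 1.26, 1.27 and -0.81. The groups did not overlap for 3 members that were higher and 1 that was lower in CTR (6.56% and 10.5% of all genes), and for 1 higher and no lower member in ELS (4.6% and 7.03%).

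ELS and CTR mice were compared at P9, at P200 after PBS and at P200 after LPS. No member passed the test in any of these comparisons. By edgeR's quasi-likelihood test 0.0%, 0.168% and 0.0% of all tested genes were called, and 914, 1622 and 798 genes (5.47%, 9.71% and 4.78%) had an unadjusted p under 0.05. The members at an unadjusted p under 0.05 were 1, 0 and 1 of 10. At P9 1 member had an unadjusted p under 0.05, Alox5ap with medians of 237 CPM in CTR and 273 CPM in ELS and overlapping groups (log2 fold change 0.36, SE 0.12, adjusted p = 0.858 by edgeR). Without P9_19.2_ELS its log2 fold change was 0.19 (SE 0.08), and that of Hpgds went from 0.13 (SE 0.18) to -0.24 (SE 0.10). After PBS at P200 no member had an unadjusted p under 0.05, and Alox5ap was at a median of 559 CPM in CTR and 478 CPM in ELS (-0.24, SE 0.17, 95% interval -0.57 to 0.09).

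After LPS the member farthest apart between conditions was Ptges (log2 fold change 2.74, SE 1.09, adjusted p = 0.862 by edgeR's quasi-likelihood test), from the 3 ELS-LPS mice described above. The median of Ptgs2 was 214 CPM in CTR-LPS against 246 CPM in ELS-LPS, and the ELS-LPS mice spanned the whole range of the CTR-LPS mice (log2 fold change 0.21, SE 0.65, 95% interval -1.07 to 1.496). Ptger4 likewise overlapped (0.24, SE 0.32, 95% interval -0.39 to 0.88). The intervals leave room for differences of more than 1 on the log2 scale for Ptgs2 but not for Ptgs1 (0.06, SE 0.16, 95% interval -0.24 to 0.37) or Tbxas1 (0.15, SE 0.08, 95% interval -0.02 to 0.31). No member passed in the interaction of LPS and ELS, where 0.0% of genes were called by edgeR (5.87% at an unadjusted p under 0.05), or in that of age and ELS, where 0.0299% were called (10.3% at an unadjusted p under 0.05). In the latter Alox5ap had the smallest p of the members (-0.60, SE 0.21, unadjusted p = 0.00567, adjusted p = 0.319 by edgeR).

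Beyond the members, 58 other genes of the pathway were in the files and 38 of these were tested. With LPS 3 of the 38 were higher and 3 lower in CTR, and 3 higher and 3 lower in ELS. These shares are near those of all tested genes (8.73% higher and 6.2% lower in CTR, 7.4% and 4.94% in ELS), so the genes below are single results and not one about the pathway. Hpgd, the dehydrogenase that inactivates prostaglandin E, fell in both conditions. It was at 279 to 369 CPM (median 342) in CTR-PBS and 152 to 242 CPM (median 209) in CTR-LPS, and at 264 to 338 CPM (median 319) in ELS-PBS and 131 to 244 CPM (median 160) in ELS-LPS. The groups did not overlap in either condition, and the log2 fold change was -0.76 (SE 0.13, adjusted p = 1.17e-05) in CTR and -0.84 (SE 0.15, adjusted p = 2.52e-05) in ELS by edgeR's quasi-likelihood test. Zadh2, a prostaglandin reductase named after its values were seen, also fell (-0.79, SE 0.24, adjusted p = 0.0189 in CTR and -0.80, SE 0.28, adjusted p = 0.0461 in ELS, by edgeR).

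Among receptors Ptgdr2, which binds prostaglandin D, rose from a median of 0.342 to 1.93 CPM in CTR (log2 fold change 2.56, SE 0.66, adjusted p = 0.00458) and from 0.322 to 1.98 CPM in ELS (2.55, SE 0.73, adjusted p = 0.0132) by edgeR's quasi-likelihood test. Ptger2, another prostaglandin E receptor, passed in ELS and not in CTR, although no gene passed the interaction. It was at 0 counts in all 6 ELS-PBS mice and above 0 in 4 of 5 ELS-LPS mice with at most 1.48 CPM. The microsomal transferase Mgst1 was at 0 counts in all 13 PBS mice and at most 1.00 CPM in the LPS mice. Ephx2, an epoxide hydrolase, was at 0 counts in all 5 ELS-LPS mice and at most 1.82 CPM in ELS-PBS. For these 3 genes both levels are so low that no fold is given. In CTR the other calls, named after their values were seen, were Plaa (0.47, SE 0.15, adjusted p = 0.0194) and Lta4h, the hydrolase that makes leukotriene B (-0.34, SE 0.11, adjusted p = 0.022), both by edgeR.

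With age 10 of the 38 genes were higher and 11 lower in CTR, and 11 higher and 8 lower in ELS, beside 17.4% higher and 26.6% lower of all genes in CTR and 42.2% called in ELS. With so many genes called with age, nothing particular to the pathway is read from these counts. The leukotriene receptor Cysltr1 was at a median of 74.5 CPM in P9-CTR and 235 CPM in CTR-PBS (log2 fold change 1.56, SE 0.20, adjusted p = 4.72e-09 by edgeR's quasi-likelihood test), and Hpgd was at 133 and 342 CPM (1.35, SE 0.11, adjusted p = 1.92e-14). The lysosomal phospholipase Pla2g15 rose from 425 to 1133 CPM (1.40, SE 0.18, adjusted p = 4.82e-09). Lower at P200 in CTR and ELS alike were Akr1b3, a reductase with prostaglandin F synthase activity (-1.10, SE 0.13 and -1.44, SE 0.14), the reductase Ptgr1 (-1.66, SE 0.23 and -2.01, SE 0.25) and Pla2g7, which breaks down platelet-activating factor (-4.42, SE 0.62 and -3.32, SE 0.61). Pla2g7 had medians of 16.7 CPM in P9-CTR and 0.638 CPM in CTR-PBS, beside the fall of the neuron, astrocyte and border macrophage markers. Mgst3 (-1.29, SE 0.24) passed with a log2 fold change beyond -1 in ELS and Mgst2 (-3.40, SE 0.93) in CTR. Ptger2, Mgst1, Slco2a1, Ephx2, Aloxe3 and Abcc4 also changed beyond that size in at least 1 condition, the first 5 with medians at or below 1.13 CPM in every group. Between ELS and CTR none of the 38 genes passed, with 2, 1 and 2 genes at an unadjusted p under 0.05 by edgeR at P9, after PBS and after LPS, beside 5.47%, 9.71% and 4.78% of all tested genes.

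The genes most like each member over the 50 mice, by Pearson r of log2 CPM among 11053 genes, were listed for the 8 members with enough expression. They are descriptions over mice that share group differences and library quality. The gene nearest to Ptgs1 was Gm43621 (r = 0.971), to Alox5ap Gm19719 (r = 0.984) and to Ltc4s Gm26542 (r = 0.939), each an opposite-strand gene sharing exon bases with the member. For Ptger4 the nearest were Tnfsf9 (r = 0.957), Gm14023 (r = 0.953) and Gm11110 (r = 0.949), and for Alox5 Entpd1 (r = 0.934), Mlph (r = 0.927) and Spsb1 (r = 0.923). Hpgds was nearest to Snx6 (r = 0.934), Smc3 (r = 0.926) and Snx2 (r = 0.915), and Pla2g4a to Rnft1 (r = 0.913), Acer3 (r = 0.871) and Gpbp1 (r = 0.868). Tbxas1, the most even member, had no gene above r = 0.685 (Serpinf1). After the antisense genes Ptgs1 was nearest to Gm19412 (r = 0.954) and Shisa5 (r = 0.946), Alox5ap to Cst3 (r = 0.961) and Rnase4 (r = 0.957), and Ltc4s to Ndufa8 (r = 0.906) and Gm45205 (r = 0.888).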

How the data were processed

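The 50 mice gave 1 poly-A library each from sorted hippocampal microglia. The authors trimmed reads with cutadapt 2.10, aligned them to GRCm39 with STAR and counted unique exonic reads per gene with HTSeq 0.11.0, and the deposited values are raw counts without normalization. The annotation release and the strand setting are not given in the sources used here. Mice were grouped by their labels, which list 13 P9-ELS mice where the series text gives 12. Counts were TMM-scaled in edgeR 4.0.16 (R 4.3.3). A gene entered the fit when more than 2 mice reached 1 CPM, and contrasts of 6 group means over all 50 mice were tested with the quasi-likelihood test and Benjamini-Hochberg adjustment over 16696 genes at 0.05. Ptgs2 and Ptges met this filter only through LPS mice. The test was checked on simulated data. SE is the fold change divided by the root of the F statistic. Log2 CPM used a prior count of 2.

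Per-length levels divided CPM by the union of exons, or by the longest transcript, of a GENCODE annotation of GRCm39. Correlations, shares and figures used Python 3.11.15, pandas 2.3.3, numpy 2.4.6 and matplotlib. The named genes were all 10 members, the other pathway genes that passed at 0.05 with a log2 fold change beyond 1 in either direction in any comparison of 2 groups, and the 3 genes most like each member with a mean log2 CPM of at least 1. The members and all lists were chosen with earlier results of these data known, and the NF-kB and C/EBP letters were widened after the promoter windows were seen. Alternatives were the likelihood-ratio and robust tests, DESeq2 1.42.0, its size factors in edgeR, 2 other filters, only the groups compared, voom in limma 3.58.1 with the number before the point in the mouse labels as random effect, the same number as a block, fits without the 3 libraries with fewest genes, and fits without each mouse.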

Additional observations from a re-analysis of the deposited data

Results flagged for a closer look

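Each P200 group was searched for a mouse whose gap to its nearest neighbour was a large part of the range of its group (Dixon's ratio, 95% level). Of 40 gene and group combinations 7 were set apart in this way, where chance gives about 1 in 20 for groups without many zeros. That rate does not hold for Ptgs2 after PBS, since 5 mice of each PBS group were at 0 counts and a single mouse with counts then has a ratio near 1. For Ptgs2 the highest mouse was far from the rest in CTR-PBS (P200_5.1_CTR_PBS, 1.15 CPM against 0.0779 for the next, ratio 0.932) and in ELS-PBS (P200_17.1_ELS_PBS, 1.37 CPM against 0, ratio 1). This ELS-PBS mouse also had the highest Hpgds of ELS-PBS (441 against 338 CPM, ratio 0.763). Tbxas1 had 1 high mouse in CTR-LPS (P200_18.3_CTR_LPS, 487 against 438 CPM, ratio 0.653) and 1 in ELS-LPS (P200_11.2_ELS_LPS, 573 against 470 CPM, ratio 0.761). P200_11.2_ELS_LPS had the highest Alox5ap of ELS-LPS too (952 against 682 CPM, ratio 0.715), beside the lowest Ptgs2 of the LPS mice. Ptger4 had 1 low mouse in CTR-PBS (P200_1.1_CTR_PBS, 4.43 against 6.64 CPM, ratio 0.676), which is 1 of the 3 libraries with few detected genes.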

How the results depend on the processing

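The number of members called changed by more than 1.5 times in 2 of 84 refits other than those without 1 mouse. For LPS against PBS in ELS it went from 2 to 4 (Ptgs2, Ptger4, Ptges and Alox5ap) with DESeq2 and also 4 without the 3 libraries with the fewest detected genes. In 450 refits without 1 mouse the number stayed within 1.5 times, and no called value changed its direction. Ptgs2 and Ptger4 were called for LPS in all 10 alternatives and 50 refits in each condition, and Alox5, Alox5ap and Hpgds for age in all 9 and 50. The number before the point in the mouse labels is not defined by any source used here. Of the 10 such numbers with both treatments at P200, 0 had a correlation of deviations above 0.1. With so few mice per number this cannot show that mice sharing a number are independent, and P9 mice were not checked in this way. The correlation within a number was estimated at 0.0778 in the voom fit. With this number as a replicate block in P200 mice 2 members were called for LPS in CTR, 3 in ELS (with Alox5ap added) and 0 for the interaction. The cause of these changes was not tested. Depth limits Ptges and, without LPS, Ptgs2, which rest on few counts per mouse.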
